A study of Mus musculus with 6 samples.

Results

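Long intergenic noncoding RNAs (lincRNAs) are transcripts without a recognised open reading frame that are annotated between protein-coding genes, and the expressed ones were followed here in hearts under pressure overload. The deposited count table types 5559 of its 54532 genes as lincRNA, and 3739 of these have 0 counts in all 6 libraries. The 112 members were the lincRNA rows other than H19 with at least 20 counts in each of the 6 libraries, so they were selected on read counts in these same libraries. All 112 carry the type lincRNA in GENCODE mouse release 21 as well, and 58 of them overlap no other gene of the table on either strand. The level floor in every library keeps out a lincRNA that fell below 20 counts in either group, so that strong changes of weakly expressed lincRNAs are missing by construction.

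RNA-seq of the left ventricle was performed in 3 TG and 3 NTG male mice, 4 weeks after aortic banding (AB), with operation at 8 to 10 weeks of age. TG mice carry the genotype label HINT2CTG-Myh6Cre, in which a CAG-driven human HINT2 transgene is switched on in cardiomyocytes by a Myh6-driven, tamoxifen-inducible Cre. NTG mice are labelled C57BL/6J, and whether they received tamoxifen or carried Cre is not stated in the sources used here, so the transgene, the Cre and the drug cannot be told apart in this comparison. Banding was shared by both groups, and sham-operated hearts were not analysed here. Libraries were poly-A selected, which bears on transcripts with little or no poly-A tail, and no source used here gives a strand setting, so reads of a lincRNA and of a gene overlapping it cannot be told apart.

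Noncoding RNAs of this class act in several ways. Some stay in the nucleus and organise bodies of RNA and protein, some bind and titrate microRNAs or RNA-binding proteins, and others are the precursors from whose introns or exons small nucleolar RNAs (snoRNAs) and microRNAs are cut. Transcription of a lincRNA can also mark the activity of a promoter that it shares with a coding gene, and several transcripts first annotated as noncoding were later found to encode small peptides.

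Total counts on genes lay between 14863568 and 17581220 per library. The library labelled NTG 1 stood apart: it held 12 counts of mouse Hint2 against 545 and 559 in NTG 2 and NTG 3 and 793 to 859 in TG, and on the first principal component of all genes it lay at −5.08, between the other NTG libraries (29.3 and 55.7) and the TG libraries (−36.5 to −10.7). The fitted log2 fold change of Hint2 was 1.33 ± 0.86 (SE, adjusted p = 0.433), with an adjusted p of 0.0212 without NTG 1, so the library labelled NTG 1 goes against its group in the targeted gene. Whether it carries the genotype of its label is uncertain and was not tested, and it enters every NTG mean and the main test. Values without it are given below where they change a call or the size of a result. Markers of several cell types differed between the groups. All 6 fibroblast markers were lower in TG at an unadjusted p under 0.05 (summed level of 2180 to 3840 CPM in TG and 4520 to 10700 CPM in NTG), as were all 5 erythroid markers (762 to 908 CPM against 1310 to 2250 CPM), and 2 of 5 macrophage markers (531 to 762 CPM against 733 to 1310 CPM), beside 9.76% of all genes lower and 8.83% higher at that p. Cardiomyocyte markers summed to 25400 to 31300 CPM in TG and 15600 to 26800 CPM in NTG, and 1 of 6 passed an unadjusted p of 0.05. Smooth muscle and pericyte markers overlapped in their sum (1240 to 1490 CPM in TG and 1120 to 1460 CPM in NTG, median log2 fold change 0.042), while 2 of the 5, Acta2 (0.42) and Myh11 (0.70), were higher in TG at that p. Endothelial markers also overlapped (1400 to 1550 CPM against 1310 to 1520 CPM), with 1 of 4 higher, and 0 of the 2 lymphocyte markers tested passed. Libraries also differed in markers of other tissue. The atrial gene Myl7 had 286, 3 and 0 counts in NTG 1, 2 and 3 and 22, 135 and 1044 counts in TG 1, 2 and 3, and Myl4 had 580, 37 and 37 counts in NTG and 37, 306 and 1260 counts in TG. Sln followed the same order, so that NTG 1, TG 2 and TG 3 were high in these 3 genes. Of the 4 atrial markers 0 passed an unadjusted p of 0.05 in either direction, and their median log2 fold change was 1.52 while their sum, mostly Nppa, was 821 to 1400 CPM in NTG and 176 to 896 CPM in TG. The fat marker Adipoq had 16 counts in TG 3 and 0 to 2 in the others. In tissue RNA, fewer cells of a type and less RNA per cell cannot be told apart, and the part of these shifts in the lincRNA values was not tested.

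The lincRNAs spanned a wide range of levels. Values are CPM, read counts scaled by TMM to a common library size, and means over the 6 libraries ran from 1.5 to 409 CPM with a median of 4.58 CPM. Only 21 lincRNAs exceeded 10 CPM, while 62 lay under 5 CPM, and 85 had fewer than 100 counts in at least 1 library. The 4 most counted, Malat1, 1700020I14Rik, Neat1 and 2900097C17Rik, held 57.4% of all counts on the 112, and Malat1 alone held 20%. Part of that lies in their length, and per kilobase of transcript the highest mean levels were 60.4 CPM for Gm44386, 59.5 CPM for Gm10076 and 58.6 CPM for Malat1 (the first of these was chosen after its values were seen). Annotated transcript lengths ran from 343 to 20771 bases with a median of 2411 bases.

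**Figure D1:**
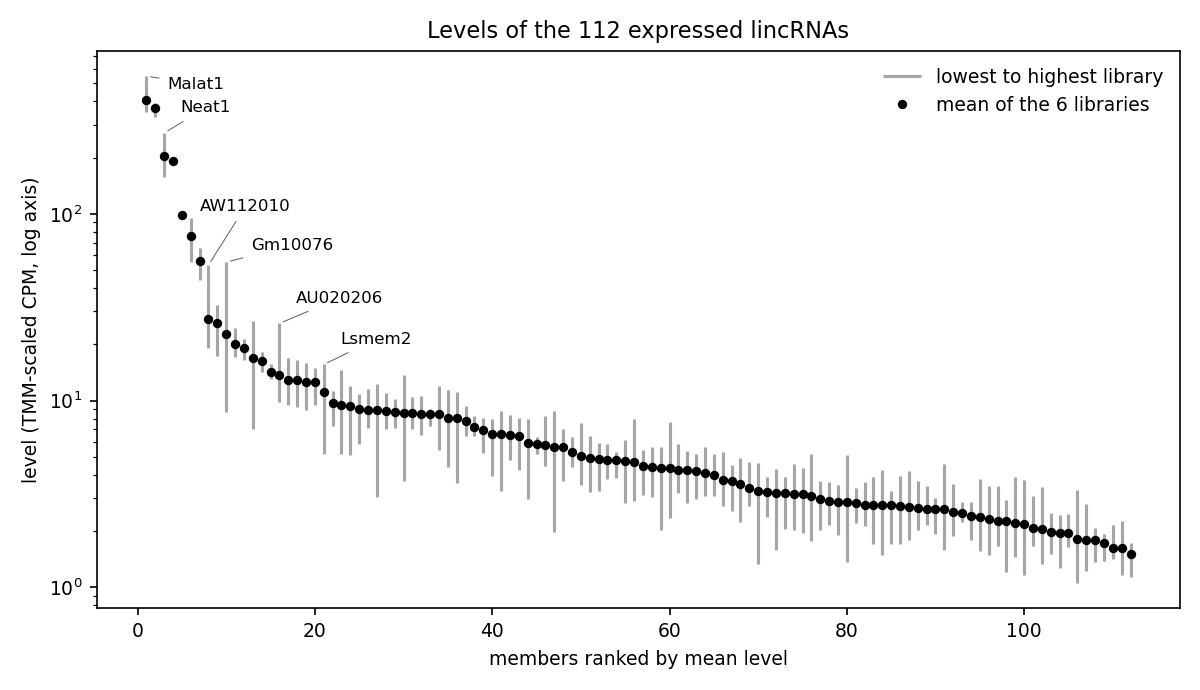
Mean level of each of the 112 lincRNAs (points, TMM-scaled CPM on a log axis) in rank order, with a bar from the lowest to the highest of the 6 libraries. Levels fall from 409 CPM to 1.5 CPM, and the longest upward bars among well expressed lincRNAs belong to Gm10076, AW112010 and AU020206.

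The summed level of the class differed between the groups by less than the spread between hearts. It was 2088, 1988 and 1985 CPM in NTG 1, 2 and 3, and 2066, 1960 and 2211 CPM in TG 1, 2 and 3. The groups overlapped, and the means of 2021 ± 58.5 CPM in NTG and 2079 ± 126 CPM in TG (SD, n = 3 each) gave a log2 ratio of 0.041 (exact permutation test, two-sided, p = 0.7, where the smallest p that 3 against 3 can give is 0.1). Without Malat1 the log2 ratio was 0.035 (exact permutation test, p = 0.5). The sign of this small ratio was not stable, since it was −0.0056 without TG 3 and −0.044 when libraries were scaled by size alone.

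No lincRNA passed the threshold of the comparison across all genes. With a call defined by a log2 fold change beyond ±0.5 and an adjusted p under 0.05, edgeR called 0 of the 112 higher and 0 lower in TG, where it called 0.0% of the 14774 genes tested in each direction, and the smallest adjusted p of a lincRNA was 0.196. At an unadjusted p under 0.05, 8 lincRNAs were higher and 6 lower in TG, which is 7.14% and 5.36% of the 112, against 8.83% and 9.76% of all genes tested. In 12 lincRNAs all 3 TG libraries lay above all 3 NTG libraries and in 7 they lay below, against 11.2% and 12.3% of all genes. The 19 in either direction are 17% of the 112 beside 23.5% of all genes, so lincRNAs with separated groups were no more frequent than in the transcriptome at large. DESeq2 on the same genes called 1 lincRNA higher and 3 lower, at a background of 1.54% and 2.4% of genes, and limma voom called 0 in either direction (background 0.00677% higher and 0.0% lower), with 11 higher and 5 lower at an unadjusted p under 0.05 (9.61% and 9.52% of genes).

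Fold changes leaned to the side of TG. The median log2 fold change of the 112 was 0.094 against −0.0081 for all genes tested, and 68 of the 112 (60.7%) had a value above 0, against 48.7% of all genes. With libraries scaled by size alone, 57 of 112 were above 0 (50.9%), the median was 0.017 and that of all genes was −0.093, so the gap between the class and all genes was of like size while its place against 0 depended on the scaling. Among the 178 further lincRNAs that were tested but did not reach 20 counts in every library, the median was 0.037 and 94 were above 0.

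**Figure D2:**
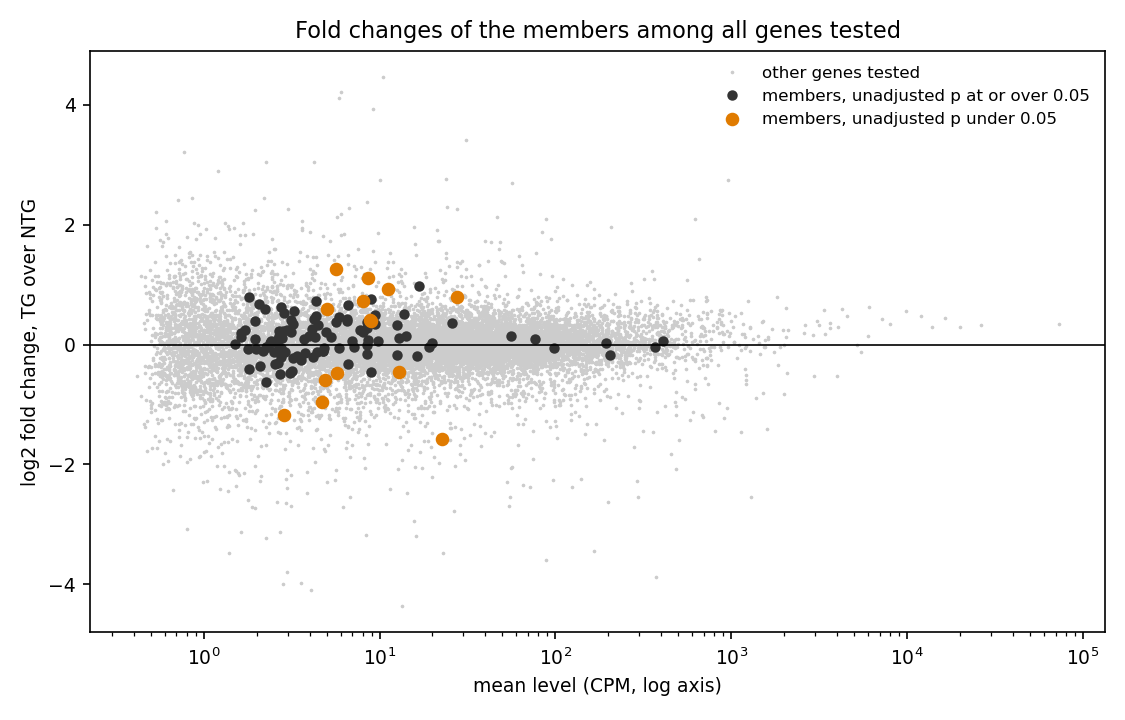
Log2 fold change of TG over NTG (edgeR) against mean level (CPM, log axis) for the 112 lincRNAs (large points) and the other genes tested (grey). The 14 lincRNAs at an unadjusted p under 0.05 (orange) lie between −1.58 and 1.26, inside the cloud of other genes.

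The levels of the most counted lincRNAs overlapped between the groups. Malat1 (chromosome 19, 5795690-5802672, minus strand, GRCm38), a nuclear RNA held in splicing speckles, had 390, 396 and 414 CPM in NTG 1, 2 and 3, and 351, 358 and 547 CPM in TG 1, 2 and 3. TG 3 was the highest and the other TG libraries the lowest of the 6, so the groups overlapped and the log2 fold change was 0.065 ± 0.18 (SE, adjusted p = 0.868). It turned to −0.18 without TG 3, the library highest in Myl7 and Adipoq. Neat1, the scaffold of paraspeckles, neighbours Malat1 on chromosome 19 and had 188, 271 and 186 CPM in NTG and 240, 158 and 178 CPM in TG. NTG 2 was highest, the groups overlapped, and the log2 fold change of −0.17 ± 0.20 (SE, adjusted p = 0.681) became 0.034 without NTG 2.

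1700020I14Rik (Oip5os1, also called Cyrano; chromosome 2, 119594297-119607502, plus strand) is known for a long site that pairs with miR-7 and directs the destruction of that microRNA. The site is shown because it is the part of this transcript on which the known role rests, with the microRNA above it. In mmu-miR-7a-5p the capitals mark the seed (bases 2 to 8). In the site, read from the longest transcript of the gene in GENCODE release 21 (8300 bases, site at 2935 to 2958), they mark the 7 bases complementary to the seed and a stretch of 13 bases complementary to the 3′ part of the microRNA.
mmu-miR-7a-5p: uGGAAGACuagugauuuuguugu
1700020I14Rik site: ACAACAAAATCACcaatGTCTTCC
The 7 bases complementary to the seed occur in 11.5% of the 6058 lincRNAs of the release (longest transcript each). How many of these also hold a second stretch of 13 paired bases was not counted. 1700020I14Rik had 391, 337 and 391 CPM in NTG and 378, 385 and 330 CPM in TG. The groups overlapped, with a log2 fold change of −0.033 ± 0.12 (SE, adjusted p = 0.904) whose sign turned in 3 of the 6 fits with a library left out.

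2900097C17Rik (Norad; chromosome 2, 156388065-156392979, minus strand) binds Pumilio proteins, which repress mRNAs, through repeated copies of their recognition element. A search on the sense strand for TGTA, any base and ATA, with overlaps allowed, found 11 copies in its transcript of 4915 bases. No other lincRNA of the release held more than 9, 13.9% held at least 1, and among the 169 of 4000 bases or more 42.6% did. The first copies are shown with 8 bases on either side, the element in capitals, because their repetition is what defines this transcript.
Norad 651-658: aagtcctgTGTATATAatatgaaa
Norad 1147-1154: aaacatgcTGTAAATAcctttttg
Norad 1336-1343: cttttcttTGTACATAgtgtatgt
Norad 1523-1530: gactgctgTGTATATAgtggacaa
Its level was the steadiest of the abundant lincRNAs, at 198, 187 and 190 CPM in NTG and 190, 198 and 194 CPM in TG. All 6 libraries lay within 187 to 198 CPM, with a log2 fold change of 0.021 ± 0.089 (SE, adjusted p = 0.915), or −0.061 with libraries scaled by size alone. A stretch of 2537 bases, 51.6% of the transcript, is 99.2% identical to the lincRNA Gm7292, and how the counting shared out reads from there is not known.

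1810058I24Rik, now known as Stmp1 and listed as protein-coding in RefSeq, encodes a small mitochondrial membrane peptide. It had 102, 95.4 and 102 CPM in NTG and 99.2, 95.0 and 94.3 CPM in TG, overlapping values with a log2 fold change of −0.055 ± 0.083 (SE, adjusted p = 0.745). Gm5532 closed the list of the most counted, at 55.4 to 84.6 CPM in NTG and 67.6 to 94.8 CPM in TG (log2 fold change 0.10 ± 0.19, SE, adjusted p = 0.795). For Gm5532 the value was −0.068 without NTG 2 and −0.055 without TG 3.

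Of the 14 lincRNAs at an unadjusted p under 0.05, 13 lay above the class median of 4.58 CPM and Gm39822 lay below it. They included 4 of the 21 above 10 CPM and 3 of the 62 under 5 CPM. In the 21 above 10 CPM the median standard error of the log2 fold change was 0.18, and in the 62 under 5 CPM it was 0.29, so a change of a given size was harder to separate from the spread in the latter. Fitted changes exceeded 1.5-fold upwards in 14 lincRNAs and downwards in 5. The 6 with the smallest unadjusted p in each direction are described next, and none of these 12 reached an adjusted p below 0.196 with all 6 libraries in edgeR. DESeq2 gave adjusted p-values under 0.05 for 4 of them, which are given with each.

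Lsmem2 (chromosome 9, 107593841-107597075, minus strand) had 11.3, 5.15 and 6.65 CPM in NTG 1, 2 and 3, and 14.8, 13.3 and 15.6 CPM in TG 1, 2 and 3. Every TG library lay above every NTG library, and NTG 1 lay nearest to TG. The fitted change was 1.90-fold (log2 0.93 ± 0.27, SE, adjusted p = 0.196 by edgeR and 0.0383 by DESeq2), and without NTG 1 it was 1.3 on the log2 scale (edgeR adjusted p = 0.0177). RefSeq lists Lsmem2 as a protein-coding gene, so its place among noncoding RNAs rests on the annotation used for the counting.

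2310040G24Rik (chromosome 6, 86483376-86488227, minus strand) showed the largest fitted rise, with 6.01, 2.07 and 1.97 CPM in NTG and 7.36, 7.67 and 8.77 CPM in TG. NTG 1 stood close to the TG libraries and about 3 times above the other NTG libraries, yet the groups did not overlap. Its log2 fold change was 1.26 ± 0.42 (SE, adjusted p = 0.213) with all libraries and 1.97 without NTG 1 (adjusted p = 0.0149). Gm49477 on chromosome 15 had the same form, at 8.87, 3.72 and 3.82 CPM in NTG and 13.7, 8.19 and 13.3 CPM in TG. Here NTG 1 overlapped TG 2, and the log2 fold change of 1.11 ± 0.38 (SE, adjusted p = 0.215) became 1.63 without NTG 1 (adjusted p = 0.0229).

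A430046D13Rik had 8.74, 4.41 and 5.21 CPM in NTG and 9.23, 9.61 and 11.4 CPM in TG, a log2 fold change of 0.73 ± 0.26 (SE, adjusted p = 0.217). Its groups were separated by the narrow gap between NTG 1 and TG 1, and without NTG 1 the value was 1.06 (adjusted p = 0.0299). Lppos, which overlaps the first part of Lpp, a gene of focal adhesions, had 8.46, 7.01 and 7.12 CPM in NTG and 11, 9.95 and 9.07 CPM in TG. All TG libraries were higher, with a log2 fold change of 0.41 ± 0.16 (SE, adjusted p = 0.229), while Lpp itself was at −0.26. Prr33 lies across Lsp1 and the troponin gene Tnnt3, had 4.30, 4.20 and 3.53 CPM in NTG and 5.48, 5.00 and 7.59 CPM in TG, and separated the groups in the same direction (log2 fold change 0.59 ± 0.22, SE, adjusted p = 0.23). Reads of Tnnt3 or Lsp1 that fell in shared bases could have been counted with it or left out.

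Among the lower lincRNAs, Gm39822 (chromosome 11, 51898966-51909624, plus strand) had 2.73, 4.09 and 5.09 CPM in NTG and 2.16, 1.76 and 1.36 CPM in TG. The groups did not overlap, NTG 1 was again nearest to TG, and the log2 fold change was −1.18 ± 0.31 (SE, adjusted p = 0.196 by edgeR and 0.0404 by DESeq2). Gm12295 (chromosome 11, 65277654-65365798, minus strand) had 4.30, 6.37 and 7.93 CPM in NTG and 3.39, 3.35 and 2.90 CPM in TG. It was lower in all TG libraries, at −0.95 ± 0.26 on the log2 scale (SE, adjusted p = 0.196 by edgeR and 0.0462 by DESeq2). Without NTG 1 the log2 fold changes were −1.38 for Gm39822 (adjusted p = 0.0388) and −1.15 for Gm12295 (adjusted p = 0.032). The nearest coding gene to Gm12295, at 7665 bases, is Myocd, a coactivator of muscle gene transcription, which was at 0.54 ± 0.22 (log2 fold change and SE, adjusted p = 0.259, and 0.0466 without NTG 1).

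Gm17501 had the tightest NTG values of the 12, at 5.73, 5.89 and 5.96 CPM, and 4.18, 4.26 and 3.27 CPM in TG. Its groups were well apart, with a log2 fold change of −0.59 ± 0.19 (SE, adjusted p = 0.211) that was −0.60 without NTG 1. The snoRNA hosts Snhg18 and Snhg12 complete this set and are described with their class below.

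Gm10076 showed the largest fitted fall, with the largest standard error of the 12. It had 35.0, 55.1 and 12.6 CPM in NTG and 14, 11.7 and 8.64 CPM in TG. NTG 3 lay within the TG range, so the groups overlapped, and the log2 fold change was −1.58 ± 0.51 (SE, adjusted p = 0.213 by edgeR and 0.0127 by DESeq2). RefSeq lists Gm10076 as a pseudogene: 383 of its 384 bases align to the ribosomal protein gene Rpl41 with 2 substitutions, C127T and G234A (the base of Rpl41, the position from the 5′ end of Gm10076, then the base of Gm10076). Rpl41, with 343 to 389 CPM in NTG and 415 to 484 CPM in TG, had the opposite sign (log2 fold change 0.29 ± 0.12, SE, adjusted p = 0.248). Since the 2 transcripts differ at 2 positions, the split of reads between them is uncertain. Near-identical copies elsewhere (at least 150 bases at 97% identity or more) were found for 11 of the 112.

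**Figure D3:**
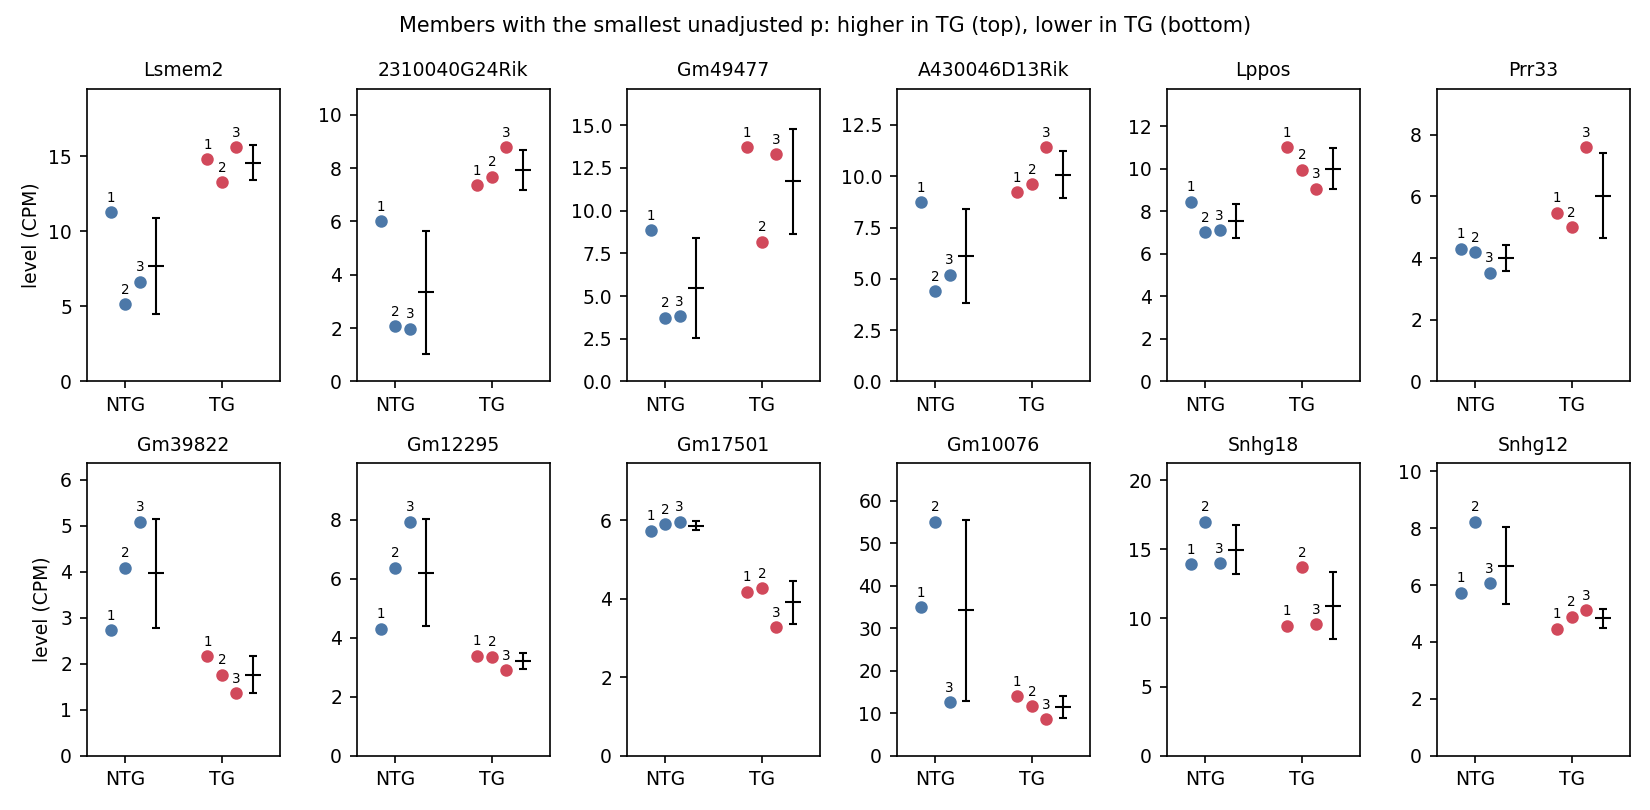
Level (CPM, axes from 0) in each library of the 6 lincRNAs higher and the 6 lower in TG with the smallest unadjusted p, with library numbers beside the points and mean ± SD (n = 3) in black. NTG 1 is the NTG library nearest to the TG mean for 11 of the 12, all but Gm10076, which spreads from 12.6 to 55.1 CPM within NTG.

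Promoters of 3 of these lincRNAs are shown, 250 bases before to 50 after the start (RefSeq, GRCm38.p6). Lsmem2 had the smallest unadjusted p of the higher lincRNAs, 2310040G24Rik the largest fitted rise, and Gm17501 shares a start region with a coding gene. Capitals mark matches, on either strand, to TATAAA, CTA and TAG with any 4 bases between them, AAGGTCA (a nuclear receptor site) or GGGCGG (a GC box). The second is a loose form of the core of the MEF2 element of muscle genes.
Lsmem2, chr9:107597026-107597325, minus strand: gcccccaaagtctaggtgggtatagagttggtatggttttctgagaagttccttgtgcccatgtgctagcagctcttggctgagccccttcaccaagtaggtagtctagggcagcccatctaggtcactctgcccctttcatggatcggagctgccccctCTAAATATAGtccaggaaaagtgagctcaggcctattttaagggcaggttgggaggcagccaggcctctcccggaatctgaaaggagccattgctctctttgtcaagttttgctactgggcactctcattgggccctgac
2310040G24Rik, chr6:86488178-86488477, minus strand: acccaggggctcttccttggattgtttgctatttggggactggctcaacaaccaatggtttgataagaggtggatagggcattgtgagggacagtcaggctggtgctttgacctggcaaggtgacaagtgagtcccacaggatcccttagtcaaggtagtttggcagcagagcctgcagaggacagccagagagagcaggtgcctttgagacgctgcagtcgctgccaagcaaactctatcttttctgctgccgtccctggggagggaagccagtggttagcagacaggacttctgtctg
Gm17501, chr3:145649827-145650126, plus strand: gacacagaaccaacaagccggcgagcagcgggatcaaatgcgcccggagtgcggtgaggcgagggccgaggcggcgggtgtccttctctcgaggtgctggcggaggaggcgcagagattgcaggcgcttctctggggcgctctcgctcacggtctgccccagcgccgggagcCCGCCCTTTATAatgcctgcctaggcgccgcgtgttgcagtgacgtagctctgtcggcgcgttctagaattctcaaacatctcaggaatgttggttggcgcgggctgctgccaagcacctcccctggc
The Lsmem2 window holds 1 match to this loose form of the MEF2 core, a palindrome in its fixed letters and so counted once. The loose form is in 3.69% of the 27025 RefSeq promoters and in 4 of the 74 lincRNA promoters that could be matched (5.41%). The 2310040G24Rik window holds none of the 4 motifs, and neither does that of Gm39822, which is not shown. That of Gm17501, whose RefSeq start lies 235 bases from the start in the table, has 65.3% G and C and holds TATAAA and GGGCGG side by side on the minus strand, the strand of Ccn1, and these occur in 14.1% and 35.6% of all promoters and in 17.6% and 37.8% of the lincRNA promoters. AAGGTCA is in 4.66% and 5.41%. Median GC content was 53% in the lincRNA promoters and 52.7% in all, and no test was made of these shares.

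For the 97 lincRNAs whose nearest coding gene was tested, that gene had a fold change of the same sign in 48. The median distance to the nearest coding gene was 7942 bases. At 15 lincRNAs the start lies within 1000 bases of the start of a coding gene on the opposite strand, a head-to-head arrangement in which both can start from 1 promoter region. Of these 15, 5 were at an unadjusted p under 0.05 (33.3%, beside 9.28% of the other 97 lincRNAs and 18.6% of all genes), namely A430046D13Rik, Lppos and Fam120aos, which were higher, and Snhg18 and Gm17501, which were lower. Fam120aos, chosen after its values were seen, had 7.99, 7.17 and 8.04 CPM in NTG and 11.5, 9.15 and 9.88 CPM in TG (log2 fold change 0.39). With a library left out the count at that p ran from 1 to 6 of the 15. It was 6 without NTG 1 or TG 2, 1 without NTG 2, NTG 3 or TG 3, and 2 without TG 1. With all libraries the fold change of the coding partner had the same sign in 5 of the 15. Opposed signs were seen at A430046D13Rik and Myl6b (0.73 and −0.44), at Lppos and Lpp (0.41 and −0.26) and at Snhg18 and the guidance cue Sema5a (−0.46 and 0.45). Gm17501 lies 331 bases from Ccn1, a matricellular protein, which varied from 89.4 to 288 CPM within TG and had a log2 fold change of −0.27 ± 0.43 (SE).

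**Figure D4:**
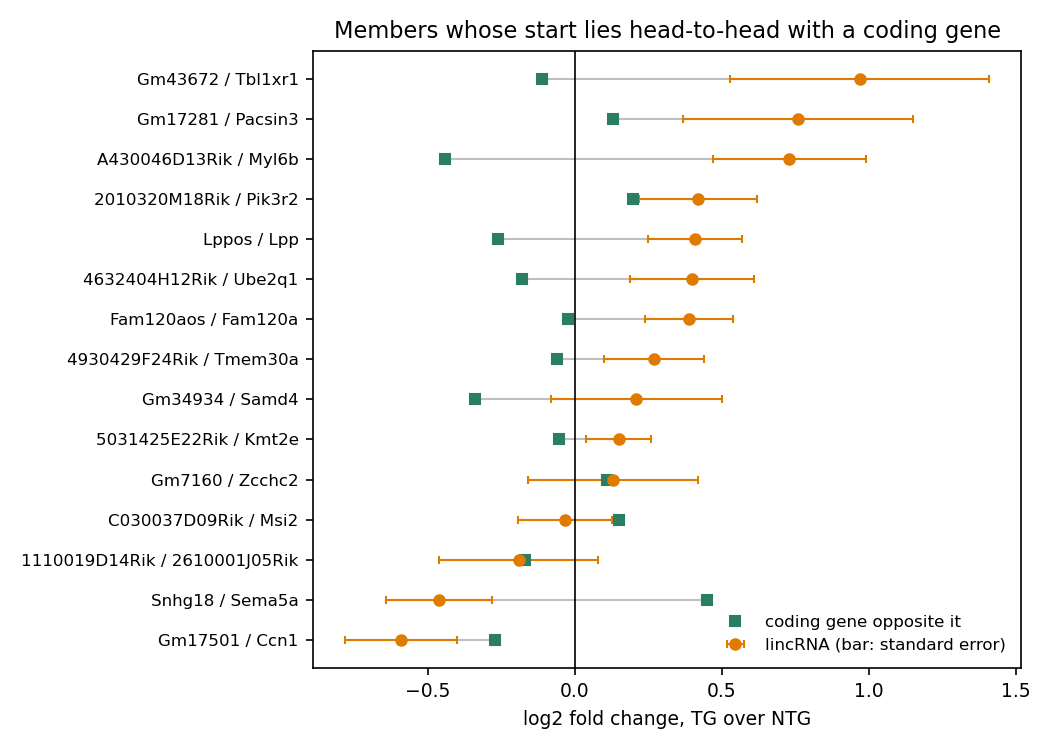
Log2 fold change of TG over NTG for the 15 lincRNAs with a head-to-head coding gene (circles, with standard error) and for that gene (squares). The signs are the same in 5 of the 15 pairs, and Snhg18 and Sema5a lie 0.46 below and 0.45 above 0.

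Host genes of snoRNAs, whose excised RNAs guide the modification of ribosomal RNA, were, on the median, lower in TG, a result that rested on NTG 2. Of 16 hosts tested (5 of them among the 112), 3 were lower and 0 higher at an unadjusted p under 0.05 (18.8% lower, beside 9.76% of all genes), 2 had a fold change above 0, and the median log2 fold change was −0.34, beside −0.0081 for all genes. None was called by edgeR, DESeq2 or edgeR with a library left out. Without NTG 2 the median was −0.064, with 6 hosts above 0 and 0 at an unadjusted p under 0.05 in either direction, and without NTG 1 it was −0.49 with 6 lower at that p (37.5%, beside 13.3% of all genes). The count at that p was also 0 without TG 1 and 1 without TG 3, where the medians were −0.33 and −0.35. Snhg18 had 13.9, 17 and 14 CPM in NTG and 9.45, 13.7 and 9.57 CPM in TG (log2 fold change −0.46 ± 0.18, SE, adjusted p = 0.236), and Snhg12 had 5.73, 8.23 and 6.07 CPM in NTG and 4.47, 4.89 and 5.12 CPM in TG (−0.47 ± 0.20, SE, adjusted p = 0.265). In both, all TG libraries lay below all NTG libraries, narrowly so for TG 2 in Snhg18. The third was Gas5, not typed as lincRNA in the table, with 26.7 to 38.3 CPM in NTG and 20.6 to 25.7 CPM in TG (−0.42, adjusted p = 0.224). The other hosts among the 112 were Snhg6 (0.067), Epb41l4aos (−0.058) and Snhg20 (0.42), none with an unadjusted p under 0.05. Summed over the hosts, levels were 118 to 174 CPM in NTG, highest in NTG 2, and 102 to 119 CPM in TG, with NTG 2 also the highest library for fibroblast, macrophage and erythroid markers.

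Mir17hg is the precursor of the miR-17-92 cluster, which is cut from its transcript. Its 6 microRNAs fall into 4 seeds, shown with bases 2 to 8 in capitals to make the shared seeds visible (RefSeq, GRCm38.p6).
mmu-miR-17-5p: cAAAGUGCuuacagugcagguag
mmu-miR-20a-5p: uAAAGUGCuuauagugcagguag
mmu-miR-18a-5p: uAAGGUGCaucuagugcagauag
mmu-miR-19a-3p: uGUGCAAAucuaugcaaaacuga
mmu-miR-19b-3p: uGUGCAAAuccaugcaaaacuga
mmu-miR-92a-3p: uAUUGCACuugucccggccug
miR-17 and miR-20a share a seed, as do miR-19a and miR-19b, and that of miR-18a differs from the first by 1 letter. Mir17hg had 2.94, 2.71 and 1.21 CPM in NTG and 1.95, 2.44 and 2.28 CPM in TG. The TG values lay inside the NTG range, with a log2 fold change of −0.032 ± 0.36 (SE, adjusted p = 0.971). Counts on the host say nothing of the mature microRNAs, which poly-A libraries do not measure. Of 6 microRNA hosts tested, 2 outside the 112 were lower at an unadjusted p under 0.05, namely Mir99ahg (7.3 to 7.91 CPM in NTG, 4.33 to 5.86 CPM in TG, log2 fold change −0.54) and Dnm3os (12.3 to 18.1 CPM in NTG, 6.13 to 13.1 CPM in TG, −0.87), and 0 were higher, beside 9.76% of all genes lower and 8.83% higher at that p.

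Other lincRNAs with known roles did not pass the test. Meg3, the maternally expressed RNA of an imprinted cluster, had 8.53, 8.60 and 9.72 CPM in NTG and 6.56, 10.6 and 6.91 CPM in TG (log2 fold change −0.16, adjusted p = 0.71). It was at −0.035 without TG 1 and −0.41 without TG 2. Bvht (Braveheart), which acts in the commitment of embryonic cells to the heart, had 6.49, 7.01 and 7.81 CPM in NTG and 9.23, 6.71 and 9.38 CPM in TG, overlapping at TG 2 (0.25, adjusted p = 0.487). Pvt1, a neighbour of Myc, was lower in every TG library, with 1.98, 2.81 and 3.47 CPM in NTG and 1.66, 1.82 and 1.85 CPM in TG, but its log2 fold change of −0.63 ± 0.29 (SE, adjusted p = 0.283) did not reach an unadjusted p of 0.05. Of the lists of nuclear, imprinted, conserved and heart noncoding RNAs and those of the X inactivation centre, which also hold antisense and other noncoding classes outside the 112, 0 of the 2, 6, 9, 4 and 2 genes tested reached that p in either direction, beside 18.6% of all genes. Gm26917, in a list of rRNA-related transcripts, stood at 9.28 to 16.5 CPM in NTG and 12.7 to 14.5 CPM in TG (0.11, and −0.058 without NTG 1).

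A single library set the level of a few lincRNAs. In 6 of the 112 the highest library exceeded the next by at least 1.5-fold, and 2 of these were in TG 3, AW112010 and AU020206. TG 3 was also the library with the most counts of Myl7 (1044, with 0 to 286 in the others) and of Adipoq (16, with 0 to 2), and the part of these in its lincRNA levels was not tested. The 4 lymphocyte markers summed to 3.83 CPM in TG 3, inside the NTG range of 0.926 to 3.96 CPM, but they did not move together. Cd3e had 23 counts in TG 3, 2 and 14 in TG 1 and TG 2, and 3, 3 and 4 in NTG. Cd3g was also highest in TG 3 (22 counts, with 2 to 21 in the others). Cd79a and Ms4a1 were not (11 and 6 counts in TG 3, with up to 22 in the others). Their part in the lincRNA levels was not tested. AW112010, an interferon-induced transcript of immune cells that encodes a peptide, had 21.5, 19.5 and 19.1 CPM in NTG and 24.7, 26.2 and 53.2 CPM in TG. All TG libraries were higher, TG 3 by 2.03-fold over the next, and the log2 fold change of 0.79 ± 0.30 (SE, adjusted p = 0.231) was 0.34 without TG 3 (adjusted p = 0.425). AU020206, chosen after its values were seen, had 11.9, 12.2 and 9.78 CPM in NTG and 9.81, 12.7 and 25.9 CPM in TG. Only TG 3 departed from the rest, and the log2 fold change of 0.51 ± 0.35 (SE) was −0.0069 without it. The remaining 4 were Gm10076 and Zfp469, highest in NTG 2, Gm34030, highest in TG 1, and Gm30735, highest in TG 2. Of the genes in the list of small peptides, 1500011K16Rik (not among the 112; 19.4 to 23.9 CPM in NTG and 25.7 to 29.4 CPM in TG, log2 fold change 0.31) was the other one higher at an unadjusted p under 0.05, which makes 2 of 6 tested, beside 8.83% of all genes.

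The library labelled NTG 1 lay nearer to TG in most lincRNAs, as it did in most genes tested. Its level was closer to the TG mean than to the mean of NTG 2 and NTG 3, on a log scale, in 76 of the 112 (67.9%), beside 60.9% of all genes tested. Of the 14 lincRNAs at an unadjusted p under 0.05 it was so in 8. On the first principal component of the 112, with 53.6% of their variance, NTG 1 scored 0.97, NTG 2 at −4.79 and NTG 3 at −2.8, and TG 1, TG 2 and TG 3 lay at 2.61, 0.836 and 3.17. NTG 1 thus sat inside the TG range. It also differed from NTG 2 and NTG 3 in atrial markers, with 286 counts of Myl7 against 3 and 0, 122 of Sln against 1 and 1 and 580 of Myl4 against 37 and 37, while the other one, Nppa, was lower in NTG 1 (754 CPM against 1390 and 1400 CPM), and the part of these in its lincRNA levels was not tested. Without it, with 2 NTG libraries left, edgeR called 6 lincRNAs higher and 2 lower in TG, at a background of 2.67% and 2.85% of 15136 genes, and 18 were higher and 7 lower at an unadjusted p under 0.05 (background 13.7% and 13.3%). The 6 were Lsmem2, 2310040G24Rik, Gm49477, A430046D13Rik, Gm43672 and 9230112J17Rik, and the 2 were Gm39822 and Gm12295. Gm43672, 19.7, 7.01 and 7.52 CPM in NTG and 25.2, 14.7 and 26.8 CPM in TG, went from 0.97 to 1.61 on the log2 scale when NTG 1 was left out (adjusted p = 0.0299). 9230112J17Rik, 8.26, 3.29 and 3.82 CPM in NTG and 7.64, 7.67 and 8.77 CPM in TG, went from 0.66 to 1.17 (adjusted p = 0.0267), and its NTG 1 value lay within TG. Left out instead, NTG 2 and NTG 3 gave 0.71 and 0.74 for Gm43672 and 0.42 and 0.49 for 9230112J17Rik. Both lincRNAs were chosen after their values were seen. Lsmem2, Gm39822 and Gm12295 were the 3 called both here and by DESeq2 with all libraries.

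**Figure D5:**
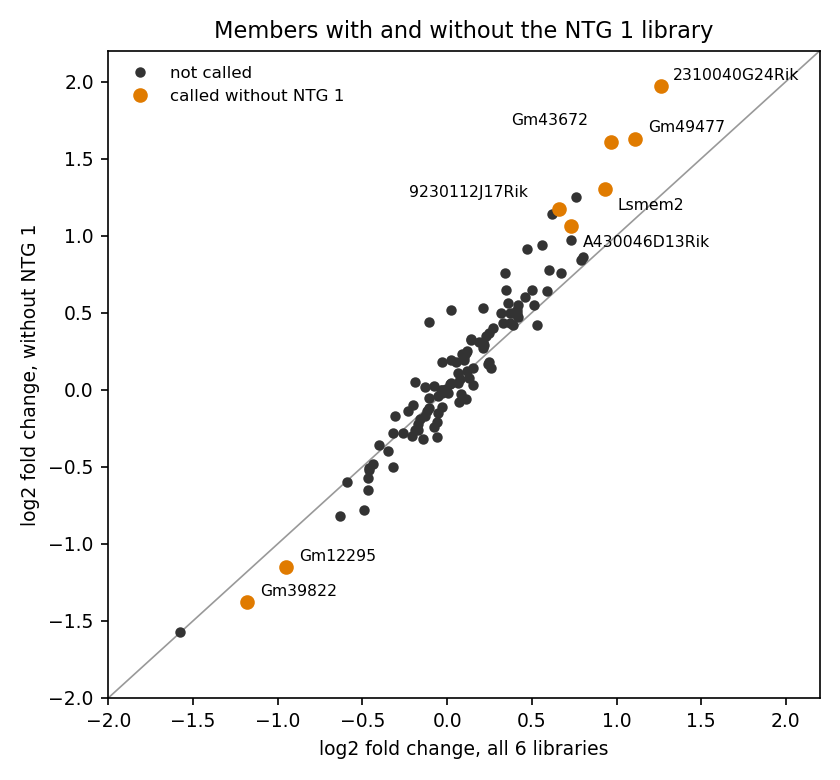
Log2 fold change of TG over NTG for each of the 112 lincRNAs with all 6 libraries (horizontal axis) and without NTG 1 (vertical axis), with the line of equality and the 8 called without NTG 1 in orange. The 6 called higher lie above the line, for example 2310040G24Rik at 1.26 and 1.97.

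At the floor itself, 4 lincRNAs were just inside, each with 20 counts in its lowest library. Gm32688, Gm47882 and Gm38910 had log2 fold changes of −0.077, 0.0072 and 0.19, and AC163032.1, with 21, 20 and 25 counts in NTG and 46, 23 and 37 counts in TG, had one of 0.80. Just outside were Gm1976 (19 to 28 counts, −0.25), Gm15328 (19 to 31 counts, 0.067) and 4930480K23Rik, with 27, 19 and 19 counts in NTG and 55, 50 and 49 counts in TG (1.32). The last missed the floor through its NTG libraries alone. Of the 178 tested lincRNAs outside the 112, 13 were higher and 13 lower at an unadjusted p under 0.05 (7.3% each way, below the 8.83% and 9.76% of all genes). They include 2310020H05Rik, with 19, 3 and 11 counts in NTG and 45, 56 and 52 counts in TG (2.24), Halr1, with 35, 66 and 72 counts in NTG and 15, 31 and 19 counts in TG (−1.31), and Gm36377, with 12, 46 and 52 counts in NTG and 3, 15 and 1 counts in TG (−2.41). With the floor set on the mean of the 6 libraries instead, 169 lincRNAs qualified. At that p 16 were higher and 12 lower (9.47% and 7.1%, beside 8.83% and 9.76% of all genes).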

How the data were processed

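RNA-seq counts per gene were analysed for 3 TG and 3 NTG left ventricles. The authors deposited raw counts, 1 column per heart, without normalization or pooling; per the methods, reads were cleaned, mapped and counted with featureCounts, and the submitters' processing notes name HISAT2, DESeq2 and the human build GRCh38. Gene identifiers and coordinates in the table are mouse, and 98.3% of the 54495 genes found in GENCODE mouse release 21 have identical positions there, so GRCm38 is used. The strand setting and the handling of multi-mapped reads are not given in the sources used here. TG was compared with NTG in R 4.3.3 with edgeR 4.0.16 (TMM, filterByExpr, robust quasi-likelihood test) on all genes, with Benjamini-Hochberg adjustment over 14774 genes, and a call needed a log2 fold change beyond ±0.5 with an adjusted p under 0.05. Fits were tested on simulated data. DESeq2 1.42.0, limma 3.58.1 (voom), other scalings, no low-count filter, a replicate block, other membership rules and each library left out were alternatives. Named were the 6 most counted members, the 6 with the smallest unadjusted p in each direction, those in lists by role (written from recall) and the 3 on either side of the floor. Members, lists and motifs were chosen with earlier results of these data known. The p-values measure the spread between these libraries, 1 per heart. No 2 libraries agreed within counting noise (chi-square per gene 15.8 to 132). Of the members, 89 matched a RefSeq entry by symbol or older name at the same position, 77 of them as lncRNA and 10 as protein-coding (6 under the same symbol).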

Additional observations from a re-analysis of the deposited data

How the results depend on the processing

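Depth limits most of these values, since 62 of the 112 lincRNAs lie under 5 CPM, and all rest on 3 libraries a group. The counts of called lincRNAs (0 higher and 0 lower) were 1 and 3 with DESeq2 and 0 to 6 and 0 to 2 when single libraries were left out, 6 and 2 without NTG 1 and 0 without any other. The 8 higher and 6 lower at an unadjusted p under 0.05 became 5 higher with libraries scaled by size alone (4.46%, beside 6.19% of all genes). They became 16 and 12 with a mean of 20 counts, and 4 higher among the 58 that overlap no other gene (6.9%). With a library left out, 1 to 18 were higher and 3 to 7 lower. The number higher was 1 without NTG 3 (0.893%, beside 5.15% of all genes) and 18 without NTG 1 (16.1%, beside 13.7%). It was 4 without NTG 2 or TG 3 (3.57%, beside 5.08% and 5.35%). The number lower was 3 without NTG 2 or TG 3 (2.68%, beside 5.37% and 6.09%) and 7 without NTG 1 (6.25%, beside 13.3%). The 19 with separated groups became 32 with a mean of 20 counts, 10 without overlapping genes and 24 to 44 with a library left out. With all 6 libraries, 23.5% of all genes had separated groups, and the share with a library left out was not computed. A group of fewer libraries is more readily separated, so the 24 to 44 cannot be read against the 19. The median was 0.017 with library size alone, and 0.031 to 0.16 with a library left out. The summed level was −0.044 with library size alone and −0.0056 to 0.082 with a library left out. Lists restricted to lncRNA entries of RefSeq, and the sum without Malat1, were added after the data were seen. Why these values moved was not tested, apart from the fewer libraries or genes that an alternative holds by construction.

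Samples with equal numbers did not deviate together (correlations of 0.0807, 0.173 and −0.252). These gave no sign of a pairing by number, but so few libraries cannot exclude one. With the replicate block, 13 lincRNAs were higher and 5 lower at an unadjusted p under 0.05 (11.6% and 4.46%, beside 11.2% and 10.7% of all genes). It called 0 lincRNAs, and 84 higher and 147 lower of the 14774 genes.

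Of the 390 alternative values of the named lincRNAs, 350 kept their direction and side of the threshold, 10 kept their direction and passed it, and 30 turned sign, all of lincRNAs with log2 fold changes between −0.17 and 0.19 with all libraries. With library size alone, Malat1 was at −0.02, 2900097C17Rik at −0.061, Snhg6 at −0.022 and Gm47882 at −0.083. Gm47882 was at −0.00033 with no low-count filter, −0.024 with voom and −0.0089 with the replicate block, and Mir17hg at 0.078 with voom and 0.034 with the block. With a library left out, these lincRNAs ran from −0.18 to 0.18 (Malat1), −0.1 to 0.032 (1700020I14Rik), −0.36 to 0.034 (Neat1), −0.068 to 0.21 (Gm5532), −0.058 to 0.37 (Gm26917), −0.095 to 0.2 (Snhg6), −0.21 to 0.083 (Epb41l4aos), −0.34 to 0.18 (Mir17hg), −0.24 to 0.048 (Gm32688), −0.071 to 0.38 (Gm38910) and −0.11 to 0.18 (Gm47882).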
